A study of Mus musculus with 17 samples.

Results

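CXCR3 is a chemokine receptor, and in the mouse its ligands are encoded by *Cxcl9*, *Cxcl10* and *Cxcl11*. The RNA of these 4 genes was followed in whole lung of wild-type and NOS2-/- mice that received lipopolysaccharide (LPS, endotoxin). Members were taken by gene symbol from the probe table of the array, which gave 5 probe sets out of 22626 tested and 4 genes out of the 12393 that a probe set names alone. *Cxcl9*, *Cxcl10* and *Cxcr3* had 1 probe set each, and *Cxcl11* had 2. All 5 probe sets were tested, since no filter on low values was used.

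CXCL9, CXCL10 and CXCL11 are small secreted proteins that draw activated T cells and natural killer (NK) cells into inflamed tissue through CXCR3, a receptor coupled to inhibitory G proteins. Their genes are classic targets of interferon gamma, and *Cxcl10* also answers to type I interferon and to NF-kB, both of which lie downstream of the LPS receptor TLR4. In lung, macrophages, endothelium, epithelium and fibroblasts can all make them. C57BL/6 mice carry a frameshift in *Cxcl11* and make no functional CXCL11 protein, and the RefSeq annotation of that strain accordingly lists *Cxcl11* as a transcribed pseudogene, so in that strain its probe sets read RNA of a gene without a working product.

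Whole lungs of 17 male mice were measured on Affymetrix MOE430A arrays, with 1 array per mouse. There were 10 wild-type C57BL/6J mice, of which 4 had received saline and were taken at 22 h, while 3 were taken at 7 h and 3 at 22 h after LPS. The 7 NOS2-/- mice, which lack the inducible nitric oxide synthase in every cell and for which the labels give no strain, comprised 1 saline mouse taken at 22 h and, after LPS, 3 taken at 7 h and 3 at 22 h. LPS of *Escherichia coli* O111:B4 was given into a vein at 20 mg/kg, and the saline mice received the vehicle the same way. No saline group was taken at 7 h, so both LPS times were set against saline at 22 h. Values are log2 expression values, on which a difference of 1 is a doubling, and means are given ± SD. Nothing in the labels ties mice to litters or batches. A probe set was called changed at a limma adjusted p under 0.05 over all 22626 probe sets.

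The 3 ligand genes lie in a row on chromosome 5, with *Art3* overlapping the stretch, and *Cxcr3* lies on the X chromosome. RefSeq promoter windows were found for 3 of the 4 genes. The windows of *Cxcl9* and *Cxcl10* are printed because the RNA of these neighbours followed different time courses. Each runs from 250 bases before to 50 bases after the start of the gene on the minus strand of GRCm38.p6 and is written 5′ to 3′ along the gene. That of *Cxcl9* is chr5:92328030-92328329 and that of *Cxcl10* is chr5:92348840-92349139. Capitals mark matches to the interferon-stimulated response element (ISRE, read as GAAA, any 2 bases, GAAA) or to the kB consensus.
Cxcl9: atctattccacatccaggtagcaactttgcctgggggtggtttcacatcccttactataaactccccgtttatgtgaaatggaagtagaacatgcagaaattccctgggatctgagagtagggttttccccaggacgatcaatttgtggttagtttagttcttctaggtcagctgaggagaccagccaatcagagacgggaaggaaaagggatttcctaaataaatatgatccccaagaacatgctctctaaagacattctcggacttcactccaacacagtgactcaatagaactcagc
Cxcl10: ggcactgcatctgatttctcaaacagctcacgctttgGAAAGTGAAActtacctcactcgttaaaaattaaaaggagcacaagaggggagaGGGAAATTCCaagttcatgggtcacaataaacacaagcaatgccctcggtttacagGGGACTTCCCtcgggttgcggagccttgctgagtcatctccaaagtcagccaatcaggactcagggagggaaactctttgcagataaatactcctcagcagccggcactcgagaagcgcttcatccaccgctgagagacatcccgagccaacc

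The *Cxcl10* window held 1 match to the ISRE letters, at position -213 from the start, and 2 matches to the kB consensus, at -159 and -103. The *Cxcl9* and *Cxcr3* windows held no match to either, and none of the 3 windows matched the gamma-activated site (GAS) letters TTCNNNGAA. Both strands were searched, and no match overlapped another. Among all 32817 mouse promoter windows of this length, 3.43% held the ISRE letters, 4.50% the kB consensus and 8.29% the GAS letters. A match describes these letters only. A window without one may still hold sites with other letters, and says nothing of sites elsewhere in the gene.

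Array medians lay between 8.46 and 8.55. Wild-type LPS 22 h replicate 2 stood apart, with a correlation across probe sets of at most 0.955 with the other arrays of its group, where those correlated at 0.996. Some results that rest on it, among them the genotype differences of *Cxcl10* and *Cxcl11*, are given with and without it. The others are given with it only. The NOS2-/- saline mouse had higher levels of squamous epithelium markers (mean of 6 genes 10.04, against 7.80 to 7.96 in the wild-type saline mice) and striated muscle markers (mean of 7 genes 9.99, against 7.01 to 7.20). At 22 h after LPS the muscle mean was 7.69, 7.17 and 7.87 in NOS2-/- mice and 7.08, 7.43 and 6.96 in wild-type mice. The squamous mean was 7.87 to 7.93 in those NOS2-/- mice and 7.75, 8.17 and 7.80 in the wild-type mice. The part of these tissues in the NOS2-/- responses and in the genotype differences was not tested. The *Nos2* probe set was not lower in NOS2-/- mice. At 7 h it read 8.93 to 9.06 in wild-type and 8.94 ± 0.08 (n = 3) in NOS2-/- mice, and at 22 h 8.49 ± 0.31 (n = 3) and 9.15 ± 0.14 (n = 3). It read 8.17 ± 0.31 (n = 4) in wild-type saline mice and 8.29 in the NOS2-/- saline mouse. The sources used here do not give where this probe set lies relative to the disrupted part of the gene, so it does not check the genotype labels.

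The first question was how strongly LPS raised each ligand. *Cxcl9*, the ligand most closely tied to interferon gamma, read 7.79, 7.87, 8.12 and 7.17 in the 4 wild-type saline mice. It read 13.35, 13.71 and 13.63 at 7 h after LPS, and 13.01, 13.06 and 13.24 at 22 h. The saline and LPS mice were far apart at both times, and the lowest saline mouse was replicate 4. *Cxcl9* rose 56.8-fold at 7 h (log2 fold change 5.83, SE 0.17, adjusted p = 1.62e-12) and 41.3-fold at 22 h (5.37, SE 0.17, adjusted p = 5.85e-12). In the ranking of all 22626 probe sets by log2 fold change it stood at place 3 from the top at 7 h and place 2 at 22 h.

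*Cxcl10*, which encodes the interferon-inducible protein IP-10, read 7.57, 7.28, 7.08 and 7.48 in wild-type saline mice. At 7 h it read 13.58, 13.67 and 13.65, and at 22 h it read 11.37, 10.81 and 11.37. The 7 h mice lay above all 22 h mice, which lay above all saline mice. *Cxcl10* rose 77.8-fold at 7 h (log2 fold change 6.28, SE 0.13, adjusted p = 1.16e-13, place 2 of 22626) and 14.2-fold at 22 h (3.83, SE 0.13, adjusted p = 1.53e-11, place 18).

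*Cxcl11* read 6.95, 6.97, 7.28 and 7.14 in wild-type saline mice on its brighter probe set. At 7 h it read 11.998, 12.106 and 12.105, and at 22 h 8.11, 8.74 and 8.04. Again no LPS mouse overlapped the saline mice, but at 22 h the gap was much narrower, and the highest of the 3 values belonged to the array that stood apart. The rise was 31.6-fold at 7 h (log2 fold change 4.98, SE 0.14, adjusted p = 1.29e-12, place 9) and 2.31-fold at 22 h (1.21, SE 0.14, adjusted p = 6.39e-06, place 461). The second *Cxcl11* probe set stayed low throughout, between 5.28 and 7.19 over the 17 arrays. On it the rise at 7 h was 1.27 log2 units (SE 0.16, adjusted p = 1.49e-05), and the difference at 22 h was 0.06 (95% confidence interval -0.28 to 0.41, adjusted p = 0.795), so the late rise of *Cxcl11* rests on 1 of its 2 probe sets.

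The single NOS2-/- saline mouse read 7.03 for *Cxcl9*, 7.32 for *Cxcl10* and 6.81 for *Cxcl11*. *Cxcl9* read 13.05, 13.42 and 13.22 at 7 h after LPS and 13.13, 13.03 and 13.06 at 22 h. *Cxcl10* read 13.55, 13.51 and 13.74 at 7 h and 13.52, 13.49 and 13.50 at 22 h. For both genes the values at 22 h overlapped those at 7 h. *Cxcl11* read 11.81, 11.80 and 12.12 at 7 h and 9.73, 9.71 and 9.66 at 22 h, with no overlap between the times. *Cxcl10* had the highest log2 fold change of all 22626 probe sets in NOS2-/- mice at both times, 6.28 (SE 0.20) at 7 h and 6.18 (SE 0.20) at 22 h. *Cxcl9* rose by 6.21 (SE 0.26) and 6.05 (SE 0.26), and *Cxcl11* by 5.10 (SE 0.21) and 2.89 (SE 0.21). The largest limma adjusted p was 1.21e-07 among these 6 rises. They rest on 1 saline mouse, which was taken to vary like the mice of the other groups. Against the 4 wild-type saline mice instead, the rises at 22 h were 5.34 for *Cxcl9*, 6.15 for *Cxcl10* and 2.61 for *Cxcl11*.

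**Figure D1:**
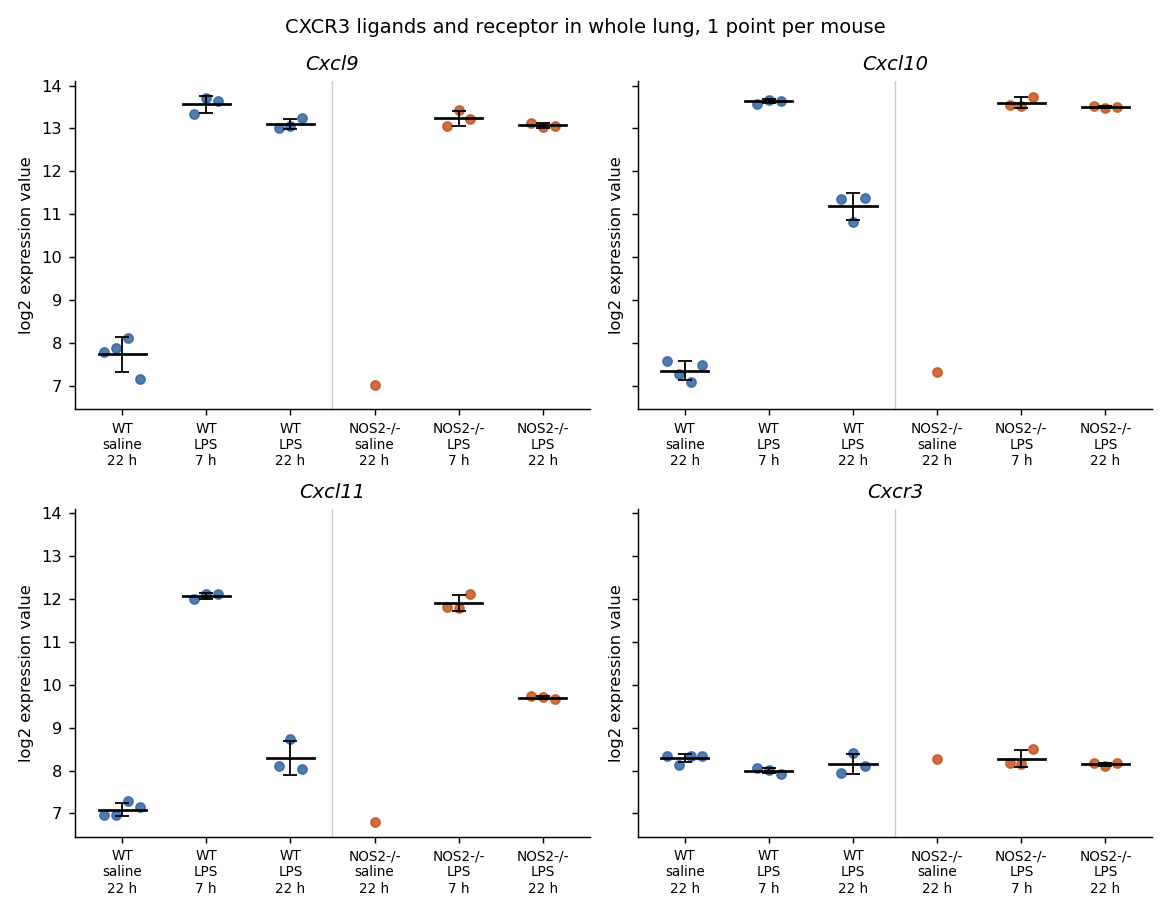
Log2 expression value (y axis) of *Cxcl9*, *Cxcl10*, *Cxcl11* (brighter probe set) and *Cxcr3* in each of the 17 mice, by genotype, treatment and time (x axis). Each point is 1 mouse, the bar is the group mean and the whiskers are ± SD, with none for the single NOS2-/- saline mouse. *Cxcl10* at 22 h after LPS lies at 10.81 to 11.37 in wild-type mice and at 13.49 to 13.52 in NOS2-/- mice, and *Cxcr3* stays between 7.93 and 8.50 in all groups.

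All 3 ligand genes were thus called higher after LPS in both genotypes at either time, for *Cxcl11* on its brighter probe set. On the second one the NOS2-/- difference at 22 h was 0.40 (adjusted p = 0.272) and, as in wild-type mice, not called. Among all probe sets, the share called higher was 14.4% for wild-type mice at 7 h and 12.8% at 22 h, and 8.78% and 11.6% for NOS2-/- mice. In exact two-sided permutation tests each ligand reached p = 0.0286 in wild-type mice at both times, the smallest p that 3 mice against 4 allow. Whole lung was measured, so more RNA per cell and more cells that make the RNA cannot be told apart.

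The single probe set of the receptor did not follow those of its ligands. It lay between percentiles 36.5 and 49.3 of all probe sets in every array, and whether it read above background was not tested. *Cxcr3* read 8.34, 8.14, 8.35 and 8.34 in wild-type saline mice, 8.06, 8.02 and 7.93 at 7 h, and 7.94, 8.41 and 8.10 at 22 h. The NOS2-/- values were 8.28 after saline, 8.17, 8.15 and 8.50 at 7 h, and 8.17, 8.11 and 8.17 at 22 h. The wild-type 7 h mice lay below all saline mice and below all NOS2-/- 7 h mice, and the NOS2-/- 22 h mice lay below the single NOS2-/- saline mouse. At 7 h *Cxcr3* was 1.23-fold lower in wild-type mice (log2 fold change -0.29, SE 0.11, adjusted p = 0.0477), in a comparison in which 17.9% of all probe sets were called lower. The exact permutation p was 0.0571. This call sits at the threshold and was lost in 12 of 17 fits that each left out 1 array, the 3 wild-type 7 h arrays and 3 of the 4 wild-type saline arrays among those left out. At 22 h the difference was -0.14 (95% confidence interval -0.37 to 0.09) in wild-type mice, and it was -0.27 (adjusted p = 0.0268) without wild-type LPS 22 h replicate 2. In NOS2-/- mice the differences were -0.01 (-0.35 to 0.34) at 7 h and -0.13 (-0.47 to 0.22) at 22 h.

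**Figure D2:**
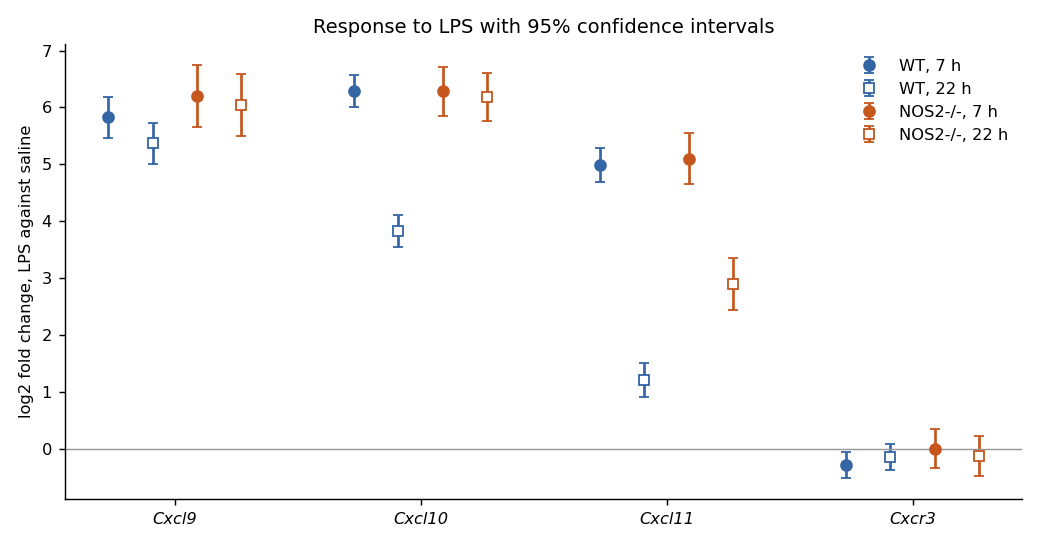
Log2 fold change after LPS against saline of the same genotype (y axis) for the 3 ligand genes and *Cxcr3* (x axis). Points are limma estimates and whiskers are 95% confidence intervals, with circles for 7 h and open squares for 22 h. At 22 h *Cxcl10* stands at 3.83 in wild-type and 6.18 in NOS2-/- mice, and *Cxcl9* at 5.37 and 6.05.

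Markers of T cells, of NK and cytotoxic cells and of plasmacytoid dendritic cells were set beside the receptor. Of 12 T cell genes, 8 were called lower in wild-type mice at 7 h, with a list median of -0.28 beside -0.05 for all probe sets, and 6 at 22 h. Of all probe sets, 17.9% were called lower at 7 h and 20% at 22 h. *Cd3e*, a subunit of the T cell receptor complex, differed by -0.20 at 7 h and -0.04 at 22 h. The mean of the 12 genes ranged from 7.88 to 7.97 in wild-type saline mice, from 7.47 to 7.52 at 7 h and from 7.56 to 7.78 at 22 h. Of 11 NK and cytotoxic cell genes, 5 were called higher and 2 lower at 7 h, beside 14.4% higher over all probe sets, led by *Ccl5* (3.01) and *Gzmb* (2.01), which encode a chemokine and a granule protease that activated lymphocytes make. The NK receptor gene *Ncr1* differed by 0.04. The mean of 5 plasmacytoid dendritic cell genes was 9.71 to 9.77 in wild-type saline mice, 10.26 to 10.37 at 7 h and 9.47 to 9.77 at 22 h. In NOS2-/- mice it was 10.08 in the saline mouse, 10.27 to 10.38 at 7 h and 10.07 to 10.11 at 22 h. The part of these cells in the *Cxcr3* values was not tested.

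**Figure D3:**
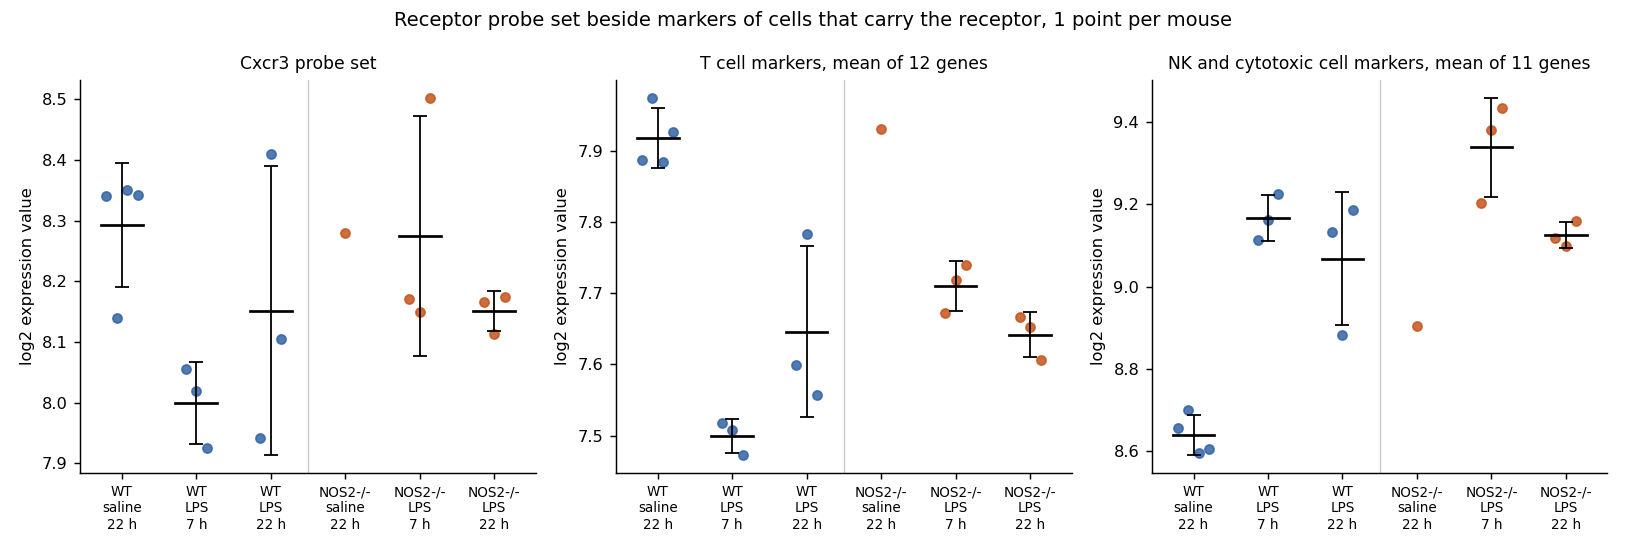
Log2 value (y axis) of the *Cxcr3* probe set, the mean of 12 T cell markers and the mean of 11 NK and cytotoxic cell markers in each mouse, by group (x axis). Points are mice, bars are means and whiskers are ± SD, and each panel has its own scale. In wild-type mice at 7 h the T cell mean (7.47 to 7.52) lies below and the NK mean (9.11 to 9.22) above the saline mice.

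The second question was whether ligand expression differed between the genotypes. At 7 h after LPS it did not pass the test for any member. NOS2-/- minus wild-type was -0.33 (95% confidence interval -0.72 to 0.05) for *Cxcl9*, -0.03 (-0.33 to 0.27) for *Cxcl10*, -0.16 (-0.48 to 0.16) for *Cxcl11* and 0.28 (0.03 to 0.52, adjusted p = 0.176) for *Cxcr3*, whose NOS2-/- mice all lay above the wild-type mice and which was called (adjusted p = 0.0307) without wild-type LPS 22 h replicate 2. Of all probe sets 2.01% were called in this comparison. The response to LPS at 7 h against saline did not differ between the genotypes beyond the test for any member either, where 1.09% of all probe sets were called.

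At 22 h the ligands parted. *Cxcl10* was 4.99-fold higher in NOS2-/- than in wild-type mice (log2 fold change 2.32, SE 0.14, adjusted p = 3.25e-07), at place 8 of 22626 from the top. *Cxcl11* was 2.64-fold higher (1.403, SE 0.15, adjusted p = 2.82e-05, place 56). *Cxcl9* differed by -0.03 (95% confidence interval -0.41 to 0.36) and *Cxcr3* by -0.0008 (-0.25 to 0.24). The 3 NOS2-/- mice lay above all 3 wild-type mice for *Cxcl10* and *Cxcl11*, with an exact permutation p = 0.1 for each, the smallest that 3 mice against 3 allow. In this comparison 9.63% of all probe sets were called higher. Without wild-type LPS 22 h replicate 2 the differences were 2.13 for *Cxcl10* and 1.63 for *Cxcl11*, both still called. On the second *Cxcl11* probe set the difference was 0.36 (-0.01 to 0.72, adjusted p = 0.188). In saline mice no member was called between the genotypes, where 1.41% of all probe sets were. The *Cxcl9* difference there was -0.71 (-1.24 to -0.18, adjusted p = 0.310), on 1 NOS2-/- mouse, and -0.90 (adjusted p = 0.0139) without wild-type saline replicate 4, the lowest of its group.

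Cell markers in the same comparison were counted beside these values. None of the 12 T cell genes was called at 22 h between the genotypes, and 1 of the 11 NK and cytotoxic genes was, upward. Of all probe sets 9.63% were called higher and 6.81% lower. Of 11 monocyte and macrophage genes 5 were lower and none higher in NOS2-/- mice, of 11 neutrophil genes 4 were higher and 1 lower, and of 10 endothelial genes 3 were higher and 3 lower. Without wild-type LPS 22 h replicate 2, where 11.2% of all probe sets were called higher and 15.4% lower, 1 T cell gene was higher, 2 NK and cytotoxic genes were higher and 2 lower, and 6 monocyte and macrophage genes were lower. *Cd14*, a monocyte gene and LPS co-receptor, differed by 0.02. The fibroblast mean (8 genes) at 22 h was 11.05 to 11.10 in NOS2-/- mice and 10.48 to 10.84 in wild-type mice. For alveolar type 1 cells (6 genes) it was 11.12 to 11.21 and 10.67 to 11.02. Club and ciliated cells (4 genes) had 13.06 to 13.12 and 12.71 to 12.83, and alveolar type 2 cells (7 genes) 13.04 to 13.08 and 12.93 to 13.13. The part of all these cells in the *Cxcl10* and *Cxcl11* differences was not tested.

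The third question was how each ligand changed between 7 h and 22 h. In wild-type mice *Cxcl11* fell 13.7-fold (log2 fold change -3.77, SE 0.15, adjusted p = 4.03e-09), and no other probe set of the 22626 fell further. *Cxcl10* fell 5.46-fold (-2.45, SE 0.14, adjusted p = 8.69e-08), at place 5 from the bottom. *Cxcl9* differed by -0.46 (SE 0.18, adjusted p = 0.124), with all 22 h mice below all 7 h mice, and it was called (adjusted p = 0.0244) in the fit without wild-type saline replicate 4. The second *Cxcl11* probe set also fell, by 1.20 log2 units (adjusted p = 0.000331). Of all probe sets 7.68% were called lower.

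*Cxcl11* in NOS2-/- mice again fell furthest of all probe sets, here 4.62-fold (-2.21, SE 0.15, adjusted p = 3.84e-06), and its second probe set fell by 0.93 (adjusted p = 0.00394). *Cxcl10* differed by -0.10 (95% confidence interval -0.40 to 0.20) and *Cxcl9* by -0.16 (-0.54 to 0.23). Of all probe sets 3.16% were called lower. *Cxcr3* differed by 0.15 in wild-type and -0.12 in NOS2-/- mice, and neither passed the test.

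The change from 7 h to 22 h itself differed between the genotypes for *Cxcl10*, by 2.35 log2 units (SE 0.20, adjusted p = 3.97e-05, place 4 of 22626), and for *Cxcl11*, by 1.56 (SE 0.21, adjusted p = 0.00152, place 25). For *Cxcl9* this difference was 0.30 (95% confidence interval -0.24 to 0.85) and for *Cxcr3* -0.28 (-0.62 to 0.07). Of all probe sets 2.49% were called higher in this interaction. Without wild-type LPS 22 h replicate 2 the values were 2.16 for *Cxcl10* and 1.79 for *Cxcl11*, both called. The interaction at 22 h that uses saline mice in place of the 7 h mice gave 2.35 for *Cxcl10* (adjusted p = 4.53e-05), 1.68 for *Cxcl11* (adjusted p = 0.00157) and 0.68 for *Cxcl9* (0.03 to 1.33, adjusted p = 0.278, and 0.87 with adjusted p = 0.0316 without wild-type saline replicate 4), where 2.52% of all probe sets were called higher. It shares the LPS 22 h mice with the first and is no separate evidence. On the second *Cxcl11* probe set neither interaction was called (0.27 and 0.33).

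Each ligand had its own order of levels over the groups. *Cxcl10* was highest in wild-type mice at 7 h (13.63 ± 0.05), NOS2-/- mice at 7 h (13.60 ± 0.12) and NOS2-/- mice at 22 h (13.50 ± 0.02), whose neighbours in this order overlapped, followed by wild-type mice at 22 h (11.18 ± 0.32) and the saline mice (7.35 ± 0.22 and 7.32). *Cxcl11* was highest at 7 h in wild-type (12.07 ± 0.06) and NOS2-/- mice (11.91 ± 0.18), which overlapped, then in NOS2-/- mice at 22 h (9.70 ± 0.03), wild-type mice at 22 h (8.30 ± 0.39) and saline mice (7.09 ± 0.15 and 6.81). *Cxcl9* held 4 LPS groups at 13.56 ± 0.19, 13.23 ± 0.18, 13.10 ± 0.12 and 13.07 ± 0.05, in the order wild-type 7 h, NOS2-/- 7 h, wild-type 22 h and NOS2-/- 22 h, with each neighbouring pair overlapping, above the saline mice (7.73 ± 0.40 and 7.03).

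Because the 3 ligand probe sets were read on the same arrays, their balance was also taken as a difference of log2 values within each mouse. Such a difference does not compare the amounts of 2 RNAs, but its change between groups shows unequal change. *Cxcl9* minus *Cxcl10* was -0.07 ± 0.15 in wild-type mice at 7 h and 1.92 ± 0.31 at 22 h, against -0.37 ± 0.24 and -0.43 ± 0.04 in NOS2-/- mice. The balance between these neighbouring genes thus moved by 1.99 in wild-type mice and by -0.06 in NOS2-/- mice. Averaged over both times, it was 1.32 lower in NOS2-/- than in wild-type mice (mean difference -1.32, exact permutation p = 0.01 within times, adjusted p = 0.015 over 6 such tests).

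*Cxcl10* minus *Cxcl11* rose from 7 h to 22 h in both genotypes, by 1.32 in wild-type and 2.11 in NOS2-/- mice (exact permutation p = 0.005 within genotypes, adjusted p = 0.01). *Cxcl9* minus *Cxcl11* rose by 3.31 and 2.05 (exact permutation p = 0.005, adjusted p = 0.01). These changes were read on the brighter *Cxcl11* probe set. On the second one, *Cxcl9* minus *Cxcl11* rose by 0.74 in wild-type and 0.77 in NOS2-/- mice (exact permutation p = 0.005, adjusted p = 0.02), but *Cxcl10* minus *Cxcl11* changed by -1.25 in wild-type and 0.83 in NOS2-/- mice (mean -0.21, exact permutation, adjusted p = 0.54). That *Cxcl11* fell relative to *Cxcl10* in wild-type mice therefore rests on 1 of its 2 probe sets. The second one read 5.54 ± 0.13 in wild-type mice at 22 h, near its saline level of 5.48 ± 0.16, so it had little room to fall further. Averaged over both times, *Cxcl10* minus *Cxcl11* was higher in NOS2-/- mice by 0.52 (exact permutation p = 0.005, adjusted p = 0.01), or 0.32 without wild-type LPS 22 h replicate 2. The difference was 0.13 at 7 h and 0.92 at 22 h. Averaged likewise, *Cxcl9* minus *Cxcl11* was lower, at -0.80 (exact permutation p = 0.02, adjusted p = 0.024), with -0.17 at 7 h and -1.43 at 22 h. On the second *Cxcl11* probe set these averages were 0.92 (exact permutation, adjusted p = 0.078) and -0.40 (exact permutation, adjusted p = 0.02). There *Cxcl10* minus *Cxcl11* differed by -0.11 at 7 h and 1.96 at 22 h, and *Cxcl9* minus *Cxcl11* by -0.42 and -0.39. The time test of *Cxcl9* minus *Cxcl10* gave 0.97 (exact permutation p = 0.055, adjusted p = 0.055), and 1.03 (exact permutation, adjusted p = 0.006) without NOS2-/- LPS 7 h replicate 2. With 400 possible splits of the 12 LPS mice, 0.005 was the smallest p these tests could give.

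**Figure D4:**
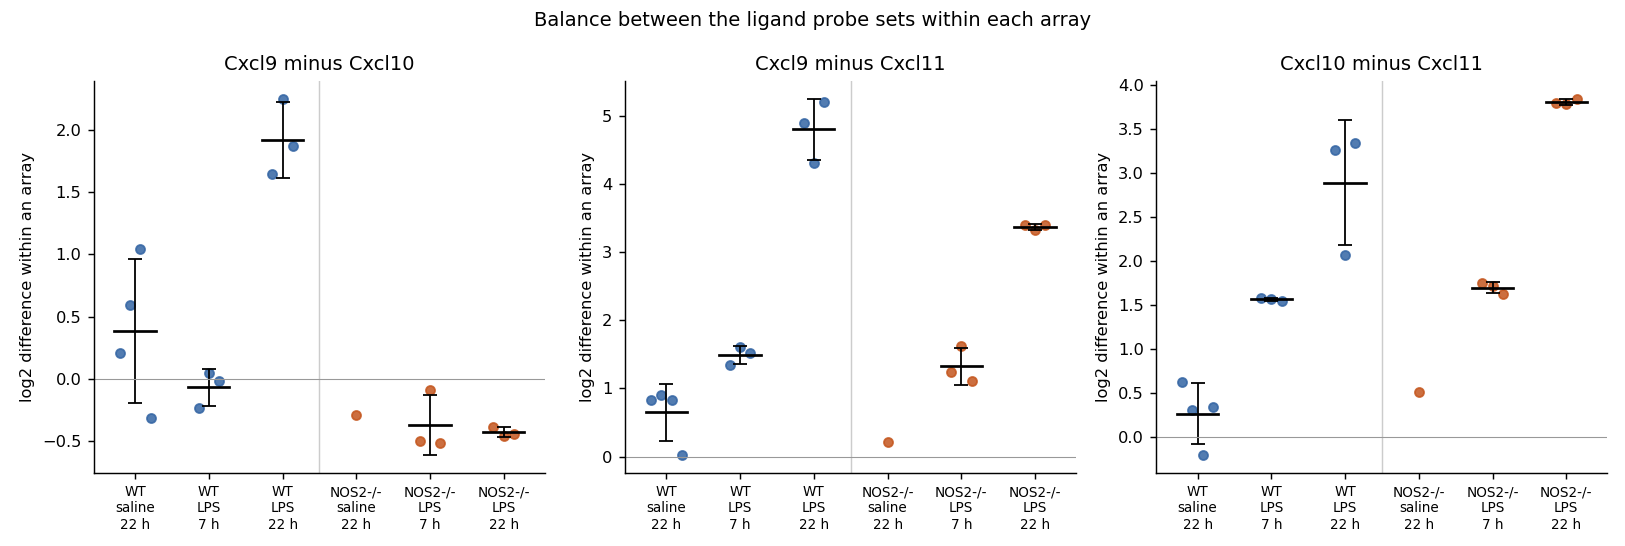
Within-array difference of log2 values (y axis) for each pair of ligand probe sets in each mouse, by group (x axis). Points are mice, bars are means and whiskers are ± SD, and each panel has its own scale. *Cxcl9* minus *Cxcl10* lies at 1.64 to 2.25 in wild-type mice at 22 h and between -0.46 and -0.38 in NOS2-/- mice at 22 h.

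Upstream of the ligands, *Ifng*, which encodes interferon gamma, had the pattern most like that of *Cxcl11* among all genes with a probe set of their own. Centred on their means over the 17 arrays, the pair differed by a root mean square of 0.44 log2 units, where *Cxcl11* itself varied by 2.07. *Ifng* read 5.94, 6.05, 6.01 and 5.97 in wild-type saline mice, 9.32, 10.52 and 10.50 at 7 h and 6.47, 7.38 and 6.68 at 22 h. In NOS2-/- mice it read 5.88 after saline, 9.76, 10.60 and 10.44 at 7 h and 8.57, 7.77 and 7.96 at 22 h. As with *Cxcl11*, both genotypes were high at 7 h, and at 22 h all NOS2-/- mice lay above all wild-type mice. *Ifng* fell from 7 h to 22 h by 3.27 (SE 0.32) in wild-type and 2.16 (SE 0.32) in NOS2-/- mice, and at 22 h was 2.39-fold higher in NOS2-/- mice (adjusted p = 0.0129). The difference between those falls was 1.11 (adjusted p = 0.202), and 1.38 and called without wild-type LPS 22 h replicate 2. The rise over saline in wild-type mice at 22 h, 0.85 (adjusted p = 0.0377), was not called without that array.

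Next to *Ifng*, the genes most like *Cxcl11* were *Ido1*, *Ubd* and *Ms4a4c*, at root mean squares of 0.60, 0.86 and 0.87. Those most like *Cxcl10* were the neutrophil chemokine genes *Cxcl1* (0.53) and *Cxcl2* (0.66), the antiviral gene *Rsad2* (0.61) and *Gbp6* (0.82), where *Cxcl10* varied by 2.72. Those most like *Cxcl9*, which varied by 2.59, were *Saa1* (0.40) and *Saa3* (0.45), which encode serum amyloid A proteins, *Cxcl2* (0.54) and *Slfn4* (0.55). *Cxcr3* varied by only 0.16, so the genes nearest to it, *Sstr2*, *Rccd1*, *Rfx2* and *Ddr1* (0.07 to 0.08), are other probe sets that changed little.

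Of 12 measured genes of interferon gamma production, 6 were called higher in wild-type mice at 7 h and none lower, led by *Ifng* (4.12) and *Il15* (1.46), a cytokine that sustains NK cells. The shares over all probe sets were 14.4% higher and 17.9% lower. *Tbx21*, which encodes the transcription factor T-bet, rose by 0.67. *Il12b*, a subunit of interleukin 12, differed by -0.06, and *Il18*, an interferon gamma inducing cytokine, rose by 0.21. From 7 h to 22 h, 5 of the 12 were called lower in wild-type mice, where 7.68% of all probe sets were called lower. In NOS2-/- mice 1 was called higher and 1 lower, beside 4.65% and 3.16% of all probe sets. Between the genotypes at 22 h, 4 were higher in NOS2-/- mice, among them *Il15* (1.11) and *Ifng* (1.26), and 3 without wild-type LPS 22 h replicate 2. The share of all probe sets called higher was 9.63%, and 11.2% without that array.

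Of 16 genes of the interferon receptors and their signalling, 10 were called higher and 1 lower in wild-type mice at 7 h. Over all probe sets 14.4% were called higher and 17.9% lower there. *Socs1*, an inhibitor of interferon signalling that interferon gamma itself induces, rose by 2.84, and *Irf1*, a transcription factor of the same pathway, by 1.85. From 7 h to 22 h, 8 of the 16 were called lower and none higher in wild-type mice, beside 7.68% lower over all probe sets. None was called lower and 1 higher in NOS2-/- mice, beside 3.16% and 4.65% of all probe sets. *Irf1* fell by 1.05 in wild-type mice and differed by 0.06 in NOS2-/- mice, and *Socs1* fell by 1.64 and differed by 0.17. In NOS2-/- mice, then, none of the 16 signalling genes passed the test of a fall, and neither did *Cxcl9*, *Cxcl10* or most probe sets, whereas *Cxcl11* and *Ifng* fell. The genotype difference in the change was called for 4 of the 16, *Socs1* (1.82), *Irf1* (1.11), *Irf8* (0.90) and *Jak1* (0.50), all in the direction of *Cxcl10*, and for 7 without the array that stood apart. The share of all probe sets called higher in this interaction was 2.49%, and 4.53% without that array. The receptor subunit gene *Ifngr1* had 0.71 in this interaction, which was not called, and 0.53 without that array, which was (adjusted p = 0.0244). *Ifngr2* had 0.06.

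**Figure D5:**
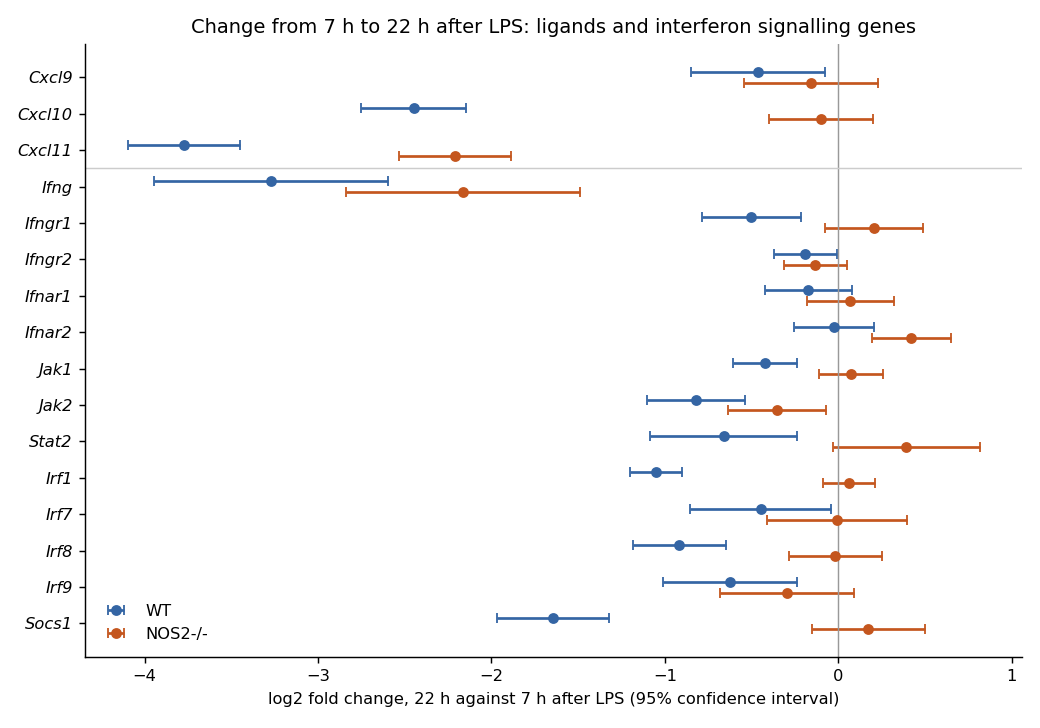
Log2 fold change at 22 h against 7 h after LPS (x axis) of the 3 ligand genes, above the line, and of *Ifng* and genes of interferon receptors and signalling, below it, in wild-type and NOS2-/- mice. Points are limma estimates and whiskers are 95% confidence intervals. *Cxcl10*, *Irf1* and *Socs1* lie at -2.45, -1.05 and -1.64 in wild-type mice and at -0.10, 0.06 and 0.17 in NOS2-/- mice.

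At 22 h 7 of the 16 signalling genes were higher and none lower in NOS2-/- mice (median 0.40, beside 0.01 over all probe sets), led by *Socs1* (1.48), *Irf8* (0.77), *Ifngr1* (0.74) and *Irf1* (0.65), and 8, with a median of 0.21, without wild-type LPS 22 h replicate 2. *Stat2*, which carries the signal of type I interferon, differed by 0.51 and was not called. Of 20 other interferon-induced genes, 10 were higher and 1 lower, among them *Mx1* (2.57) and *Ifit2* (2.15), and 9 and 1 without that array. In wild-type mice 17 of these 20 fell from 7 h to 22 h, and in NOS2-/- mice 3 did, where 7.68% and 3.16% of all probe sets were called lower. The comparison of genotypes at 22 h called 16.4% of all probe sets, and 26.6% without that array.

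Genes that link LPS to *Cxcl10* without interferon gamma were a mixed group. Of 12 genes of type I interferon induction and NF-kB, 10 were called higher and 1 lower in wild-type mice at 7 h, led by *Irf7* (3.33), the master regulator of type I interferon, and *Nfkbia*, the NF-kB inhibitor, rose by 0.91. The shares over all probe sets were 14.4% higher and 17.9% lower. The *Ifnb1* probe set in wild-type mice differed by -0.13 at 7 h and 0.08 at 22 h and was called at neither time. *Tlr4*, the LPS receptor, rose by 0.46 at 7 h, and *Tnf* by 0.84. Between the genotypes at 22 h, 2 of the 12 were higher and 3 lower in NOS2-/- mice, with *Tlr4* at -0.63 and *Nfkbia* at 0.18. Over all probe sets 9.63% were called higher and 6.81% lower there.

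Downstream, 10 genes of peptidases, proteases and atypical chemokine receptors were counted, whose action on these ligands was not tested. *Dpp4*, which encodes a peptidase that trims CXCL9, CXCL10 and CXCL11 at their amino end, read 9.46, 9.57, 9.52 and 9.49 in wild-type saline mice, 7.92 ± 0.09 (n = 3) at 7 h and 7.45, 7.33 and 7.60 at 22 h. No LPS mouse overlapped the saline mice, and it fell 3.02-fold at 7 h (adjusted p = 4.44e-10) and 4.14-fold at 22 h (adjusted p = 4.09e-11) while the ligand RNAs rose. In NOS2-/- mice it fell 2.73-fold and 3.38-fold, and at 22 h it was 0.34 higher than in wild-type mice (adjusted p = 0.0120).

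*Ackr3*, which encodes a scavenging receptor for CXCL11 and CXCL12, read 8.45, 8.56, 8.65 and 8.59 in wild-type saline mice, 11.37, 11.67 and 11.75 at 7 h and 11.71, 11.27 and 11.82 at 22 h. It rose 8.18-fold at 7 h (adjusted p = 1.31e-10) and 8.21-fold at 22 h (adjusted p = 1.86e-10), and was not lower at 22 h than at 7 h, unlike *Cxcl11*. The NOS2-/- mice showed a rise of *Ackr3* by 2.87 and 3.58, and at 22 h was 1.73-fold higher than in wild-type mice (adjusted p = 0.00161). *Ackr1*, a chemokine-binding protein of venular endothelium, rose in wild-type mice by 1.93 at 7 h and 2.06 at 22 h, and was lower in NOS2-/- mice at 22 h (-0.46). In all, 6 of these 10 genes were called higher and 2 lower in wild-type mice at 7 h, and 7 and 2 at 22 h. The shares over all probe sets were 14.4% higher and 17.9% lower at 7 h, and 12.8% and 20% at 22 h.

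Of 7 measured genes that couple or silence chemokine receptors, 3 were called higher and 1 lower in wild-type mice at 7 h. Over all probe sets 14.4% were called higher and 17.9% lower there. *Rgs1*, which shortens G protein signals in lymphocytes, rose by 1.31 at 7 h and 1.26 at 22 h, and at 22 h it was 0.74 higher in NOS2-/- mice. Without wild-type LPS 22 h replicate 2 that genotype difference was 0.40 and not called (adjusted p = 0.0582).

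The CXC chemokines that attract neutrophils, which act on CXCR2 and not on CXCR3, were set beside the members. Their list also held the receptor gene *Cxcr2*. In the 6 measured genes of that list, *Cxcr2* among them, 5 rose in wild-type mice at 7 h and none fell, beside 14.4% of all probe sets called higher. From 7 h to 22 h 5 fell, beside 7.68% of all probe sets called lower. *Cxcl1* fell by 1.41 in wild-type mice and differed by 0.61 in NOS2-/- mice, and at 22 h it was 1.81 higher in NOS2-/- mice (adjusted p = 4.81e-05). *Cxcl2* fell by 0.65 in wild-type mice and rose by 0.60 in NOS2-/- mice, and at 22 h it was 1.26 higher in NOS2-/- mice. The late genotype difference of *Cxcl10* was thus found in chemokine genes outside the CXCR3 system too, while *Cxcl9*, a neighbour of *Cxcl10* on the chromosome, did not show it.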

How the data were processed

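RNA of 17 whole lungs was hybridised to Affymetrix MOE430A arrays. Background correction, normalization and summary to log2 expression values were done by the authors with the Bioconductor package affy. The sources used here give neither its version and options nor a genome build of the probe sets. No further normalization was applied to the deposited values. After 64 control probe sets were left out of 22690, tests ran on 22626, of which 20380 name 1 gene. No pair of arrays held identical values.

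A single linear model of the 6 group means was fitted to the 17 arrays (limma 3.58.1, R 4.3.3, default empirical Bayes with 3.75 prior degrees of freedom). P-values were adjusted by Benjamini-Hochberg over all 22626 probe sets, and intervals are at 95%. Where a gene had several probe sets, the one with the highest mean represented it. Exact two-sided permutation tests for single genes and within-array differences used Python 3.11.15 and numpy 2.4.6, and the 24 tests of single genes were not adjusted. The code was tested on simulated data.

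The members and the 20 lists (7 of pathways, 13 of cell markers) were chosen with earlier results of these data known. Named genes are the members, axis genes set by name, up to 4 called genes of each list with the largest change, and the 4 genes most like each member. The likeness is the root mean square difference of centred log2 values. Some listed genes are not analysed here. Alternatives varied normalization, empirical Bayes settings, array weights, the probe filter, the samples in the fit, the replicate block, the threshold, the control of the NOS2-/- responses and the probe set. The array number limits precision.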

Additional observations from a re-analysis of the deposited data

Results flagged for a closer look

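In 4 of 37 genes examined, 1 of the 4 wild-type saline mice lay far from the other three, where chance alone sets about 1 in 20 groups apart. *Cxcr3* read 8.14 in replicate 2 and 8.34 to 8.35 in the others. *Irf9* had an array at 9.73, *Irf7* one at 10.06 and *Nfkbia* one at 13.29.

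The change from 7 h to 22 h after LPS differed between the genotypes, as NOS2-/- minus wild-type in limma, for *Cxcl10* (2.35), *Cxcl11* (1.56), *Socs1* (1.82), *Irf1* (1.11), *Irf8* (0.90), *Jak1* (0.50) and the surfactant gene *Sftpb* (0.57). The response to LPS at 22 h against saline differed for *Cxcl10* (2.35), *Cxcl11* (1.68), *Socs1* (1.49), *Stat2* (1.24), *Irf1* (1.02), *Ifngr1* (0.87), *Sftpb* (0.63) and *Jak1* (0.57). Both contrasts use the same LPS 22 h mice.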

How the results depend on the processing

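No value of a member changed direction past its threshold, and 1215 of 1248 values of members and 79 of 82 of pairs kept direction and side of the threshold. All settings kept the calls of *Cxcl10*. On the other *Cxcl11* probe set, an alternative chosen after seeing the data, calls were lost for LPS at 22 h in wild-type (0.064) and NOS2-/- mice (0.40), for the genotypes at 22 h (0.36) and for the interactions (0.27 over time, 0.33 against saline). Averaged over the genotypes, *Cxcl10* minus *Cxcl11* over time turned on it from 1.72 to -0.21. Averaged over both times, its difference between genotypes was 0.92 and no longer past the threshold. The fall of *Cxcr3* at 7 h in wild-type mice was lost with quantile normalization (-0.26), medians subtracted (-0.28), trended robust empirical Bayes (-0.29) and a threshold of 0.01 (-0.29). Array weights added calls for *Cxcr3* in wild-type mice at 22 h (-0.25) and between genotypes at 7 h (0.21), *Cxcl11* between genotypes at 7 h (-0.23) and *Cxcl9* from 7 h to 22 h in wild-type mice (-0.51). The cause was not tested.

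Leaving out 1 array at a time gave -0.34 to -0.26 for *Cxcr3* in wild-type mice at 7 h, -0.27 to -0.036 at 22 h and 0.16 to 0.34 between genotypes at 7 h. For *Cxcl9* it gave -0.57 to -0.39 from 7 h to 22 h in wild-type mice, 0.55 to 0.87 for the interaction against saline and -0.90 to -0.58 between saline mice. *Cxcl9* minus *Cxcl10* over time ranged from 0.88 to 1.03.

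Replicate numbers gave no clear sign of pairing. Of 30 same-numbered pairs, 4 had deviations correlated over 0.1 (median -0.02, beside -0.003 in the 72 other pairs). With so few arrays per group this check cannot tell whether mice were paired. With the replicate block 45 of 48 values of members kept their side of the threshold. *Cxcr3* in wild-type mice at 7 h was lost (-0.28), and *Cxcl9* from 7 h to 22 h in wild-type mice (-0.46) and between saline mice (-0.78) were called.

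Of 309 counts of called probe sets, 84 moved by over 1.5 times. Between genotypes at 22 h, 3720 were called, against 918 with those groups fitted alone, 7349 with array weights and 6020 without wild-type LPS 22 h replicate 2. Between genotypes at 7 h, 454 were called, against 250 with the block and 9946 with weights. The interaction over time called 687, against 389 with the block, 370 fitted alone and 3071 with weights.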
